A study of Homo sapiens with 12 samples.

Results

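A549, a cell line from a lung adenocarcinoma, was compared with BEAS-2B (B2B), an SV40-immortalized line from non-cancerous bronchial epithelium. Both lines had been treated with the AP-1 inhibitor SR11302. The comparison used the 2 libraries labelled A549 and SR11302 and the 2 labelled BEAS-2B and SR11302, 4 of the 12 RNA-seq libraries of the series, and covered all 26485 gene symbols counted in them. Both lines carried the genotype label WT, grew in the same serum-containing DMEM/F-12 medium and received 10 µM SR11302, dissolved in DMSO, for 72 h. The untreated libraries of the same lines, 2 of each and labelled as receiving no treatment rather than DMSO alone, served as the setting against which the line difference under the drug was read. The remaining 4 libraries came from the same lines after 72 h in 50 µM SP600125, a JNK inhibitor, and entered the estimate of the spread and a check for transcripts of the wrong line. Each line stands for a single origin, so tumour state, airway region, donor and the history of the line cannot be told apart, and the labels do not say whether replicate libraries came from separate cultures, so p-values measure only the spread between these libraries.

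AP-1 is a family of transcription factors made of paired FOS and JUN proteins. They bind the sequence TGACTCA and switch on genes for growth, migration and wound repair in airway epithelium. SR11302 is a synthetic retinoid that represses AP-1 activity without switching on genes driven by retinoic acid response elements. A549 is widely used as a model of alveolar type II cells. It is known for constitutively active NRF2, a transcription factor of the response to oxidative stress, and for loss of the CDKN2A locus. BEAS-2B is used as a model of normal airway lining, although in serum it is known to take on mesenchymal features.

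The SR11302 libraries held 21180550 and 23625267 reads in genes in A549, against 23328567 and 16782262 in B2B, and the other libraries held 13969766 to 24917854. Levels are given as CPM (reads scaled to library size with TMM factors), and differences as the log2 fold change of A549 over B2B ± its standard error. A gene was called where edgeR's quasi-likelihood test gave an adjusted p (Benjamini-Hochberg) under 0.05 and the log2 fold change was at least 0.5 in size. Genes described as higher or lower were called higher or lower in A549. The A549 SR11302 libraries differed from each other more than any other replicate pair. Their chi-square was 44.2 per gene, against 13.5 for the B2B SR11302 pair and 2.58 to 10.5 for the other 4 pairs. The fit shared 1 spread per gene over 6 groups, so p-values and standard errors do not carry the wider spread of this A549 pair. Of 62 genes abundant in A549 and near absent in B2B by the SP600125 libraries, the sum was 13.2 and 10.99 CPM in the B2B SR11302 libraries but 11.5 and 83.5 CPM in the untreated B2B libraries. Of 17 genes with the reverse pattern, the sum was 5.29 and 6.11 CPM in the A549 SR11302 libraries and 5.11 and 13.7 CPM in the untreated A549 libraries. The second untreated library of each line therefore held some transcripts typical of the other line, which touches the untreated values of genes that are absent from either line and any difference computed from them.

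Markers of epithelium separated the lines. CDH1, the cadherin of epithelial junctions, stood at 97.01 and 115 CPM in A549, against 2.01 and 2.31 CPM in B2B, and EPCAM, an epithelial adhesion molecule, at 23.4 and 25.6 CPM in A549 and 1.603 and 1.13 CPM in B2B. KRT8 and KRT18, the keratins of simple epithelia, were abundant in both lines but higher in A549. KRT8 had 3597 and 3022 CPM in A549 and 326 and 377 CPM in B2B, and KRT18 had 2692 and 2213 CPM in A549 and 212 and 249 CPM in B2B. The alveolar surfactant genes SFTPB and SFTPC, the secretory marker SCGB1A1 and the basal keratins KRT5 and KRT14 were under 0.5 CPM in all 4 SR11302 libraries and were not tested. Of the alveolar and basal lists as a whole, 10 of 16 and 12 of 15 genes passed the filter on low counts, and their values are given below. Of 25 markers of blood cells, endothelium, muscle, ciliated and neural cells, 6 had no count in A549 and 9 had none in B2B, and their summed level was 228 to 325 CPM in A549 and 79.7 to 85.4 CPM in B2B. In these bulk libraries fewer cells of a kind and less RNA per cell cannot be told apart.

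Under SR11302, 9248 of the 16373 genes tested differed between the lines, 56.5% of the genes, with 4895 higher (29.9%) and 4353 lower (26.6%). The counts of gene lists given below are to be read against these shares. The lists and their members were chosen with earlier results of these data known, so their counts are no independent support. The differences were large: 5906 of the called genes differed by at least 1 on the log2 scale, 2115 by at least 3 and 1154 by at least 5. Untreated, 9316 genes were called (56.9%). Of the 16373 genes tested, 7069 stood, called in both conditions in the same direction, 3832 higher and 3237 lower. That is 76.4% of the calls under SR11302 and 75.9% of the untreated calls. Counts of list members that stood are to be read against these 7069 of 16373 genes. Under SP600125 9531 genes were called (58.2%), and 5978 genes were called in the same direction in all 3 conditions. Of the 2392 genes whose untreated difference was called and at least 3 on the log2 scale, 2231 (93.3%) stood under the drug. The log2 fold changes of the 2 conditions, which share no library, had a Pearson r of 0.885 and a Spearman rho of 0.844 across genes, which are not independent replicates.

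**Figure D1:**
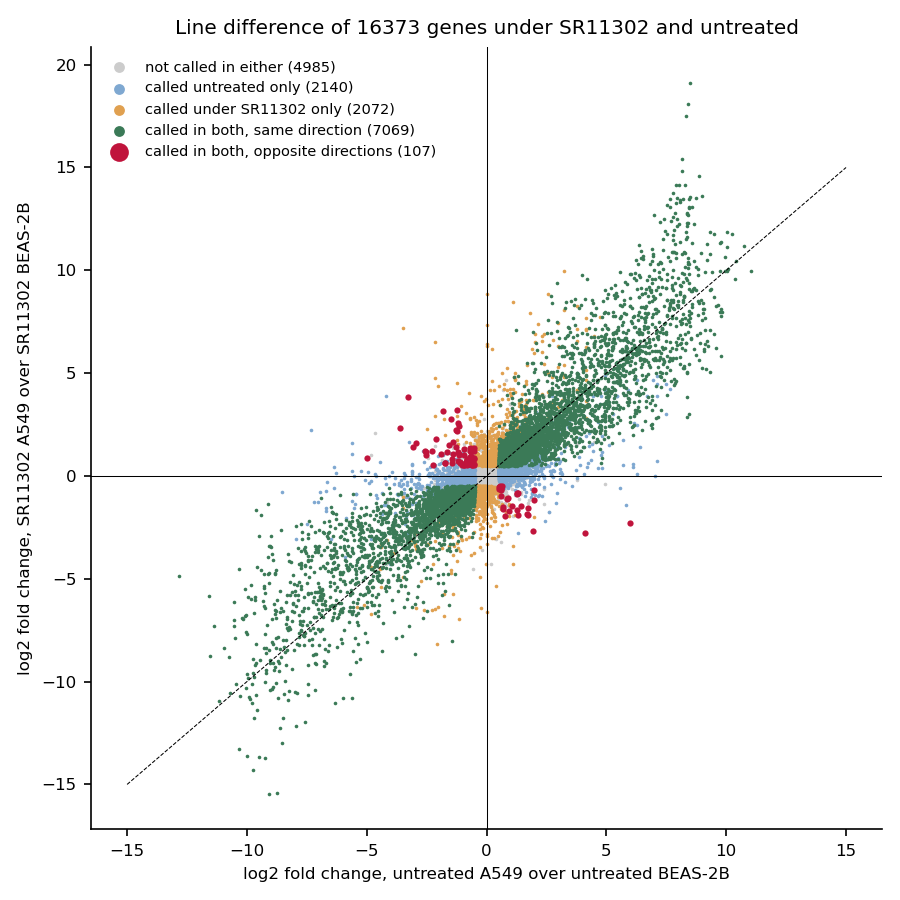
Log2 fold change of A549 over BEAS-2B under SR11302 (vertical axis) against the same untreated (horizontal axis), 1 point for each of 16373 genes tested, coloured by where the gene was called, with the dashed line marking equal differences. The 7069 genes called in both conditions in the same direction lie along the diagonal, and the 107 called in opposite directions lie in the upper left (76) and lower right (31).

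Whether a difference changed with the drug was tested directly, as the line difference under SR11302 minus the untreated line difference. This value passed the test in 2579 genes (15.8%), positive in 1366 (8.34%) and negative in 1213 (7.41%). Among the 7069 differences that stood, 368 were wider under the drug, 805 were narrower and 5896 were not called to differ, which does not show that they were equal. A further 2072 genes were called only under SR11302 and 2140 only untreated, but the difference itself passed the test in only 542 and 620 of them. The count of 2579 depended on single libraries: it was 4768 without the first A549 SR11302 library, 1375 without the first untreated A549 library, 1498 and 1573 without the first or the second untreated B2B library, and 1617 without the second B2B SR11302 library. Without the second untreated library of both lines, an alternative chosen after seeing the data, it was 1295.

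Many of the widest differences were genes with no read in the other line. Of the genes called higher, 407 had no count in either B2B SR11302 library, 71 of them at 10 CPM or more in A549, and of those called lower, 157 had no count in either A549 SR11302 library, 24 of them at 10 CPM or more in B2B. For these the fold is a lower bound against 3 counts over the 2 libraries, equal to 0.0713 CPM in B2B and 0.0674 CPM in A549. AKR1B10, an aldo-keto reductase that detoxifies aldehydes, had 3862 and 3547 CPM in A549 and no count in B2B, at least 51788-fold higher. CPLX2, a complexin of vesicle fusion, had 1781 and 1789 CPM in A549 and no count in B2B, at least 25040.0-fold higher. RSPO3, a secreted amplifier of WNT signals, had 279 and 282 CPM in A549 and none in B2B, at least 3935-fold higher. KYNU, an enzyme of tryptophan breakdown, the cancer-testis antigen PRAME, MYEOV, the neurofilament gene NEFL, the prostaglandin dehydrogenase HPGD, the calcium-binding protein TESC and the phosphatase subunit PPP2R2C were likewise without a count in B2B. They were at least 2649-fold, 2230.1-fold, 1623-fold, 1636-fold, 1293-fold, 1125-fold and 1080.1-fold higher. CYP24A1, which breaks down vitamin D, had 1500.5 and 2144 CPM in A549 and 0.123 and 0.0563 CPM in B2B. With ALDH1A1, described below, these were the 12 genes with the largest rise among those averaging 10 CPM or more in the higher line.

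On the other side stood CDH13, a cadherin anchored in the membrane without a cytoplasmic part, with no count in A549 and 88.6 and 77.5 CPM in B2B, at least 1245-fold lower. BEX1, the aggrecanase ADAMTS5, the metallothionein MT1E, the calcium channel TRPC4, the membrane protease ADAM33 and PRMT6, an arginine methyltransferase that acts on histones, were also without a count in A549. They were at least 1916-fold, 979.7-fold, 759-fold, 435-fold, 367-fold and 333-fold lower. With CDKN2A, CDKN2B, COL1A2 and IRX1, described below, these were 11 of the 12 largest falls. These 23 genes kept their call and direction in each of the 10 alternatives run for single genes under SR11302.

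Genes at chromosome band 9p21 showed a gap around the 2 cyclin-dependent kinase inhibitors. CDKN2A, which encodes the cell-cycle brakes p16 and ARF at chr9:21967752-21995301 (hg38, GENCODE v44), had no count in either A549 SR11302 library and 267 and 308 CPM in B2B, at least 4217-fold lower. CDKN2B, which encodes the neighbouring inhibitor p15, had no count in A549 and 88.2 and 74.99 CPM in B2B, at least 1225-fold lower. The untreated A549 libraries had 0 and 0.796 CPM of CDKN2A and 0.0556 and 0.106 CPM of CDKN2B, so both genes were at or near 0 in both conditions. The adjacent MTAP, an enzyme of methionine salvage, was lower but not absent, with 8.69 and 7.15 CPM in A549 and 66.9 and 54.4 CPM in B2B (-2.94 ± 0.15, adjusted p = 8.83e-10). Farther out, the tumour suppressor candidate TUSC1 and the neuronal RNA-binding protein ELAVL2 were lower (-1.40 and -7.06), KLHL9 and FOCAD were not called (0.10 and 0.40), and MLLT3 was higher at 35.6 and 47.8 CPM in A549 against 10.2 and 11.2 CPM in B2B. DMRTA1 was called higher with the drug (0.60 ± 0.25) and lower untreated (-0.76 ± 0.27), but the call with the drug was lost in 8 alternatives, among them DESeq2 and the omission of any single SR11302 library. The antisense transcript CDKN2B-AS1 had no count in A549 and was lower, and without stated strand its reads and those of CDKN2B cannot be told apart.

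Of all 38 lists, the NRF2 targets had the highest share called in a single direction. Because members were chosen with earlier results of these data known, this rank partly reflects that choice. NRF2 (NFE2L2) switches on detoxifying enzymes, glutathione synthesis and NADPH supply through the antioxidant response element, and 35 of its 36 targets tested were higher and 1 was lower, beside 29.9% and 26.6% of all genes. All 36 were also called untreated in the same direction, and the median log2 fold change of the list was 2.94 under the drug and 3.74 untreated, beside 0.05 over all genes in each. Beyond AKR1B10, the widest were AKR1C2 and AKR1C3, which reduce steroids and aldehydes, the glutathione peroxidase GPX2, and the nuclear receptor NR0B1. AKR1C2 had 1559.9 and 1810.2 CPM in A549 and 0.164 and 0.113 CPM in B2B, and AKR1C3 had 898 and 945 CPM in A549 and 0.946 and 0.451 CPM in B2B; these family members share much sequence, so reads may be divided between them. GPX2 had 224 and 226 CPM in A549 and 0.164 and 0.338 CPM in B2B, and NR0B1 had 43.2 and 32.1 CPM in A549 and no count in B2B, at least 523-fold higher. The transcript of NRF2 itself was not called, at 140.2 and 138 CPM in A549 and 131 and 119 CPM in B2B (0.16 ± 0.09). CBR3, a carbonyl reductase, was the exception, lower at 5.63 and 4.06 CPM in A549 against 19.9 and 23.2 CPM in B2B.

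The line difference of NRF2 targets changed with the drug in 12 of the 36, negative in 10 and positive in 2, beside 7.41% and 8.34% of all genes. NQO1, a quinone reductase, had 1621 and 1418 CPM in A549 and 253 and 259 CPM in B2B under SR11302, against 1999 and 1861 CPM in untreated A549 and 96.9 and 109 CPM in untreated B2B. Its line difference was 2.57 with the drug and 4.23 untreated (difference -1.66 ± 0.18, adjusted p = 4.14e-05). TXNRD1, which reduces thioredoxin, had 3271 and 3261 CPM in A549 and 1042 and 924 CPM in B2B with the drug, against 2189.6 and 2433 CPM in untreated A549 and 459 and 476 CPM in untreated B2B, and the change of its line difference was not called (-0.57 ± 0.19, adjusted p = 0.0502). PGD, of the NADPH-making pentose phosphate pathway, had 1301 and 1175 CPM in A549 and 163 and 176 CPM in B2B (2.87, against 3.61 untreated). The aldehyde dehydrogenase ALDH1A1, which also makes retinoic acid, had 9606 and 10791 CPM in A549 and 0 and 0.113 CPM in B2B, a ratio of 215460.0-fold (95% counting interval 59645 to 1779100.0). ALDH3A1 had 1303 and 1414 CPM in A549 and 0.288 and 0.225 CPM in B2B, and AKR1B15, a close copy of AKR1B10, had 73.6 and 70.4 CPM in A549 and no count in B2B. Of 30 aldo-keto reductases and aldehyde dehydrogenases tested, 17 were higher and 8 lower, with a median log2 fold change of 1.16.

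Because nearly all NRF2 targets were higher, their promoters were searched for the antioxidant response element core TGACNNNGC on both strands in the 250 bases before each start (RefSeq, GRCh38.p14). A match lay in 7 of the 24 promoters found for this list, 29.2%, beside 11.03% of all 27305 promoters. The core was not particular to this list, since it lay in 3 of 9 promoters of the oncogenes described below (33.3%) and in 3 of 15 of the AP-1 responsive genes (20%). The stretches of 5 of them, chosen to show matches in both orientations, read 5′ to 3′ along the gene with the match in capitals:
GCLM, chr1:93909431-93909489, minus strand: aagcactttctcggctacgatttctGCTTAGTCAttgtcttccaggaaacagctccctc
GPX2, chr14:64942834-64942892, minus strand: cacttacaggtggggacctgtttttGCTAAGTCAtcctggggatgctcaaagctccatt
ME1, chr6:83431155-83431213, minus strand: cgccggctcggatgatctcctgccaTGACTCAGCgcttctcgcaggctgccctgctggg
TXNRD1, chr12:104215655-104215713, plus strand: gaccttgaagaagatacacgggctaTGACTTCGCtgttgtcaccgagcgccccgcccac
CYP4F11, chr19:15934990-15935048, minus strand: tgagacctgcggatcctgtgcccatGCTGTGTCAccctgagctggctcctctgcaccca
The match in ME1, which makes NADPH from malate, contains the AP-1 site TGACTCA in full, a shared core of these motifs, and ME1 had 175 and 211 CPM in A549 and 56.7 and 49.7 CPM in B2B (1.86 ± 0.13). GCLM, the regulatory subunit of the first enzyme of glutathione synthesis, had 205 and 288 CPM in A549 and 62.9 and 49.6 CPM in B2B (2.13 ± 0.16). CYP4F11, a fatty acid hydroxylase, had 118 and 115 CPM in A549 and 0.206 and 0.563 CPM in B2B. The other 2 matches lay before PGD and the carbonyl reductase CBR1. A match is a description of these letters and not a sign that a factor bound there.

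**Figure D2:**
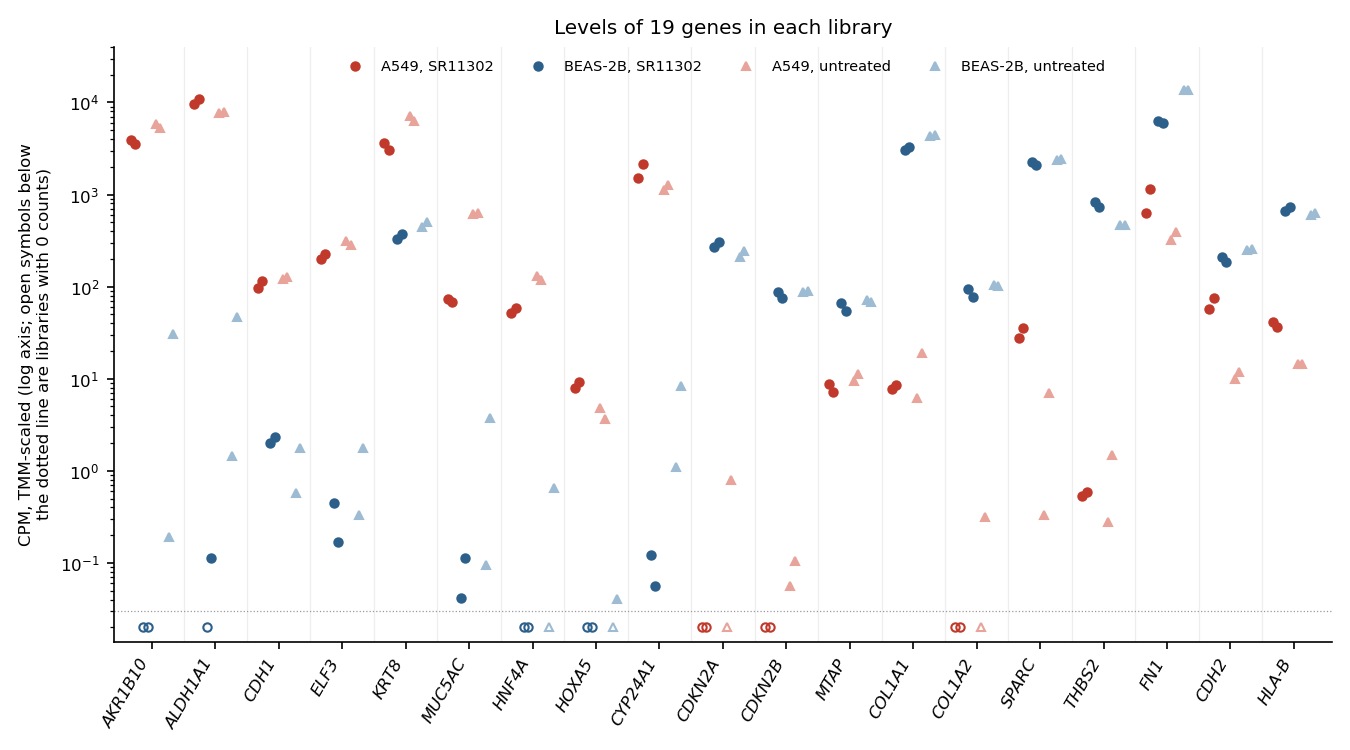
CPM of 19 genes in each of 8 libraries on a log axis, red circles for SR11302 A549, blue circles for SR11302 BEAS-2B and pale triangles for the untreated libraries, with open symbols below the dotted line for libraries without a count. Most of the 19 genes are described in the text for their line difference, so their separation here is no result about genes at large. They run from AKR1B10 at the left (3862 and 3547 CPM in A549, none in BEAS-2B, with SR11302) to HLA-B at the right (40.9 and 36.8 CPM in A549, 660 and 738 CPM in BEAS-2B).

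Epithelial genes were mostly higher in A549. Of 25 junction and identity genes tested, 16 were higher, 4 lower and 5 not called, beside 29.9% higher and 26.6% lower of all genes. The median log2 fold change was 2.31, and 20 of the 25 stood from the untreated comparison. The members of this list named in this paragraph are all among the higher ones. ELF3, an epithelial ETS factor, had 199.8 and 228 CPM in A549 and 0.452 and 0.169 CPM in B2B. EHF, another member of that family, had 10.1 and 20.1 CPM in A549 and 0.0822 and 0.113 CPM in B2B. CLDN2, the claudin that makes tight junctions leaky to cations, had 66.9 and 99.2 CPM in A549 and 0.164 and 0.282 CPM in B2B. TJP3, a tight junction scaffold, had 10.1 and 10.96 CPM in A549 and 0.123 and 0 CPM in B2B. Of 15 keratins, 10 were higher and 2 lower. KRT81, a hair keratin with close copies, had 1338 and 977 CPM in A549 and 4.85 and 6.08 CPM in B2B. KRT4, of stratified mucosa, had 60.6 and 51.6 CPM in A549 and 0.0411 and 0 CPM in B2B, a ratio of 2347-fold (95% counting interval 421 to 92729). KRT17, a keratin of basal and activated epithelium, ran the other way, at 0.243 and 0.251 CPM in A549 and 242 and 296 CPM in B2B (-10.05 ± 0.41). KRT15 was low in both lines, at 1.36 and 1.38 CPM in A549 and 0.164 and 0.0563 CPM in B2B, and KRT20 was called higher at 0.0486 and 0.795 CPM in A549 and no count in B2B, a call lost when the second A549 or the first B2B SR11302 library was left out.

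Mucins and other secretory genes were mostly higher: 13 of 16 were higher, 1 lower and 2 not called, with a median log2 fold change of 5.76. MUC5AC, the gel-forming mucin of airway goblet cells, had 72.8 and 68.7 CPM in A549 and 0.0411 and 0.113 CPM in B2B under SR11302, and 609.6 and 632 CPM in untreated A549. CEACAM6, an adhesion molecule of airway and colon epithelium, had 44.6 and 64.6 CPM in A549 and no count in B2B, at least 776-fold higher. AGR2, which folds mucins in the endoplasmic reticulum, had 25.7 and 36.1 CPM in A549 and no count in B2B, at least 439-fold higher. MUC16 had 7.19 and 10.7 CPM in A549 and no count in B2B, and MUC13 had 14.7 and 14.5 CPM in A549 and 0.0411 and 0 CPM in B2B. MUC1, a transmembrane mucin outside the naming rule and picked after its values were seen as the exception, had 1.65 and 3.77 CPM in A549 and 17.5 and 20.2 CPM in B2B. Of 10 alveolar genes tested 3 were higher and 4 lower, beside 29.9% and 26.6% of all genes, so the higher share was that of all genes. LPCAT1, which makes surfactant lipid, had 169 and 146 CPM in A549 and 40.2 and 43.6 CPM in B2B. NAPSA, a surfactant-processing protease, had 0.583 and 0.753 CPM in A549 and 0 and 0.113 CPM in B2B, and AGER, of alveolar type I cells, had 3.59 and 2.55 CPM in A549 and 7.40 and 12.1 CPM in B2B. HOPX had no count in A549 and 0.987 and 0.451 CPM in B2B, and LAMP3, of lamellar bodies, was also lower at 0.194 and 0.293 CPM in A549 and 0.863 and 0.845 CPM in B2B. Of 12 basal genes 4 were higher and 6 lower (33.3% and 50%). TP63, the master factor of basal cells, had only 0.728 and 2.01 CPM in A549 and no count in B2B.

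Lineage factors separated the lines in both directions. Of 45 transcription factors of lung, gut and mesenchymal lineages tested, 18 were higher and 19 lower, and 33 stood from the untreated comparison. HNF4A and FOXA2, which specify liver, gut and other endoderm, had no count in B2B. A549 had 52.1 and 58.0 CPM of HNF4A and 59.8 and 51.9 CPM of FOXA2, at least 775-fold and 779-fold higher. IRX1, of proximal lung patterning, had no count in A549 and 30.3 and 33.6 CPM in B2B, at least 469.6-fold lower, and EYA1 had no count in A549 and 13.2 and 12.4 CPM in B2B, at least 191-fold lower. Genes usually made by liver and gut were mostly higher as well: 24 of 37 tested were higher and 5 lower, with a median log2 fold change of 6.84, or 4.95 with genes absent from a line at their bound. TM4SF4 had 29.7 and 35.4 CPM in A549 and no count in B2B, and ANXA13 had 19.6 and 28.1 CPM in A549 and no count in B2B. The fibrinogen chain FGA had 11.5 and 13.5 CPM in A549 and no count in B2B, and the clotting factor F5 had 47.3 and 63.8 CPM in A549 and 0.0411 and 0 CPM in B2B. HOX genes, which record the position of a cell's origin along the body axis, were called in 28 of 31, 19 higher and 9 lower, and 24 stood. HOXA5, of lung and trunk, had 8.01 and 9.25 CPM in A549 and no count in B2B, and HOXA3 had 49.9 and 43.7 CPM in A549 and 0.288 and 0.113 CPM in B2B. HOXA4 and HOXA6 had no count in B2B, while A549 had 3.35 and 1.59 CPM of HOXA4 and 1.41 and 1.26 CPM of HOXA6. HOXC12, of posterior identity, had no count in A549 and 2.06 and 1.63 CPM in B2B.

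Mesenchymal and matrix genes were mostly lower. Of 21 mesenchymal genes tested, 11 were lower and 5 higher, with a median log2 fold change of -1.59. THY1, a surface marker of fibroblasts, had 0.194 and 0.0418 CPM in A549 and 168 and 189 CPM in B2B (-10.55 ± 0.25), and the receptor PDGFRB had 0.340 and 0.167 CPM in A549 and 82.7 and 86.9 CPM in B2B. TAGLN, a smooth muscle actin-binding protein whose reads partly fall in sequence shared with other genes, had 12.5 and 9.54 CPM in A549 and 419 and 479.8 CPM in B2B. S100A4, also listed as mesenchymal, ran the other way, at 445 and 357 CPM in A549 and 3.41 and 2.87 CPM in B2B. VIM, the filament protein of mesenchymal cells, was abundant in both, at 1215 and 1053 CPM in A549 and 1518 and 1539 CPM in B2B (-0.43 ± 0.12), under the fold minimum. SNAI2, a repressor of epithelial genes, was lower at 0.777 and 1.00 CPM in A549 and 6.99 and 5.52 CPM in B2B, and PRRX1 was lower at 0.0486 and 0.0418 CPM in A549 and 0.946 and 0.789 CPM in B2B.

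Of 33 matricellular and other matrix genes, 22 were lower, 5 higher and 6 not called, beside 26.6% lower over all genes, and 23 stood. THBS2, a thrombospondin that restrains vessels, had 0.534 and 0.586 CPM in A549 and 824 and 732 CPM in B2B (-10.42 ± 0.47, adjusted p = 1.94e-10). TNC, of provisional wound matrix, was lower as well. LOXL1, which cross-links elastin, had 0.291 and 0.502 CPM in A549 and 199 and 216 CPM in B2B. FBLN2 and BGN, a fibulin and a small proteoglycan, had 0.534 and 0.460 CPM of FBLN2 and 0.0971 and 0.126 CPM of BGN in A549, against 173 and 177 CPM of FBLN2 and 26.7 and 29.0 CPM of BGN in B2B. FN1, fibronectin, chosen after its values were seen, had 623 and 1146 CPM in A549 and 6354 and 5928 CPM in B2B, and its line difference was -2.80 under the drug and -5.27 untreated (difference 2.47 ± 0.30, adjusted p = 9.20e-05). COL1A1, a chain of collagen I, had 7.77 and 8.62 CPM in A549 and 3031 and 3267 CPM in B2B, and its partner chain COL1A2 had no count in A549 and 93.8 and 77.4 CPM in B2B, at least 1288-fold lower. COL8A1 and COL8A2 had 0.194 and 0.502 CPM of COL8A1 and 0.0486 and 0.126 CPM of COL8A2 in A549, against 81.2 and 69.0 CPM of COL8A1 and 11.4 and 10.2 CPM of COL8A2 in B2B, while COL21A1 had 0.534 and 1.26 CPM in A549 and no count in B2B.

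The line difference was more positive with the drug in many collagens. Of 32 chains tested 15 were lower and 9 higher under SR11302, against 22 lower and 8 higher untreated, the median was -0.55 against -2.34, and the change passed the test as positive in 15 and as negative in 1, beside 8.34% and 7.41% of all genes. COL4A1, of the basement membrane, picked after its values were seen, had 245 and 197 CPM in A549 and 244 and 216 CPM in B2B under the drug, where the lines overlapped (-0.06 ± 0.12, adjusted p = 0.692), against 109 and 119.6 CPM in untreated A549 and 870.2 and 888 CPM in untreated B2B. COL4A2, COL4A5, COL4A6 and COL11A1 were likewise not called under the drug (-0.02, -0.40, -0.23 and -0.01) but called lower untreated (-1.76, -2.02, -1.66 and -4.63), and the change passed the test in each. CDH2, the cadherin of mesenchymal cells and also chosen after its values were seen, stayed lower but by less, at 56.8 and 74.5 CPM in A549 and 212 and 184 CPM in B2B with the drug, against 10.0 and 11.9 CPM in untreated A549 and 252 and 254 CPM in untreated B2B (-1.59, against -4.53). The mesenchymal list as a whole had a median of -1.59 under the drug and -3.03 untreated, with 7 positive changes and 1 negative.

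Adhesion and protease genes were called in both directions. Of 28 laminin chains and integrins, 12 were higher and 11 lower, beside 29.9% and 26.6% of all genes. LAMA5, of epithelial basement membranes, had 1017 and 822 CPM in A549 and 63.7 and 75.2 CPM in B2B. ITGB6, an epithelial integrin that activates TGF-beta, had 12.7 and 14.1 CPM in A549 and 0.0411 and 0 CPM in B2B, and the vitronectin receptor subunit ITGB3 had 2.67 and 3.31 CPM in A549 and 49.1 and 43.6 CPM in B2B. LAMA1 was lower at 1.02 and 0.795 CPM in A549 and 20.6 and 24.6 CPM in B2B. ITGA10, a collagen receptor, was higher only with the drug, at 3.64 and 4.31 CPM in A549 and 0.370 and 0.225 CPM in B2B, against 1.33 and 0.903 CPM in untreated A549 and 1.15 and 1.26 CPM in untreated B2B (difference 3.78 ± 0.49, adjusted p = 1.79e-04). Of 25 matrix proteases and inhibitors 9 were higher and 12 lower. MMP7, matrilysin, had 11.9 and 21.8 CPM in A549 and no count in B2B, while MMP16 and MMP19 had 0.146 and 0.293 CPM of MMP16 and 0.291 and 0.418 CPM of MMP19 in A549, against 23.9 and 15.6 CPM of MMP16 and 11.8 and 13.9 CPM of MMP19 in B2B, and SERPINB2 had no count in A549 and 1.89 and 1.35 CPM in B2B. MMP11 was low in both, at 0.0486 and 0 CPM in A549 and 0.987 and 2.31 CPM in B2B.

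**Figure D3:**
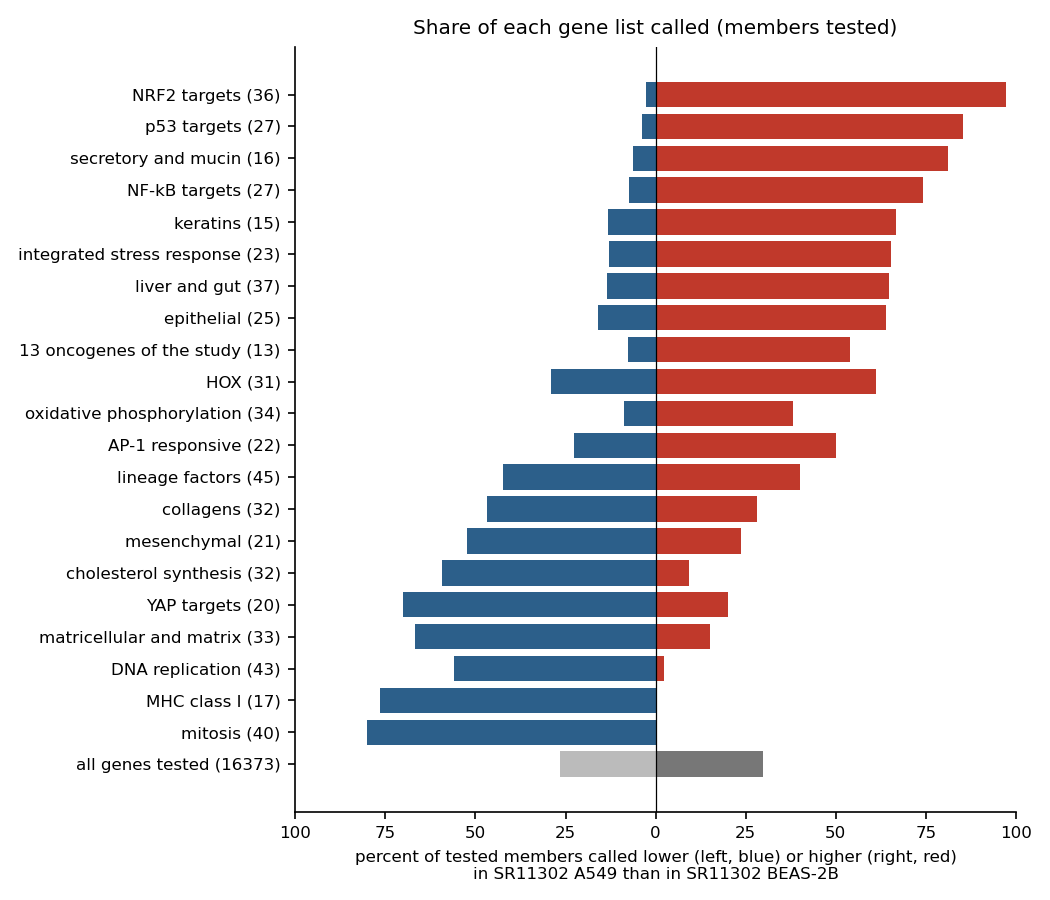
Percent of the tested members of 21 gene lists called higher (red, right) or lower (blue, left) in SR11302 A549 than in SR11302 BEAS-2B, with the number of members tested in brackets and all 16373 genes in grey at the bottom (29.9% higher, 26.6% lower). NRF2 targets at the top are nearly all higher, with 35 of 36. Mitotic genes at the bottom of the lists are lower in 32 of 40 and higher in none. The lists were chosen with earlier results of these data known.

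The AP-1 subunits themselves were a mix under the inhibitor. Of the 7 subunits 3 were higher, FOSB, FOS and JUNB, 2 were lower, JUN and JUND, and FOSL1 and FOSL2 were not called. FOSB had 8.16 and 11.2 CPM in A549 and 1.64 and 1.80 CPM in B2B (2.50 ± 0.20, adjusted p = 6.94e-08). FOS had 50.8 and 83.9 CPM in A549 and 13.1 and 11.7 CPM in B2B (2.44 ± 0.22), and JUNB had 56.2 and 63.6 CPM in A549 and 21.3 and 18.99 CPM in B2B (1.57 ± 0.15). Untreated A549 had 255 and 279.9 CPM of FOSB, 323 and 311 CPM of FOS and 129 and 106 CPM of JUNB. Their line differences changed by -3.66, -2.80 and -1.32 on the log2 scale (adjusted p = 2.86e-06, 4.97e-05 and 9.11e-04). JUN had 82.6 and 77.8 CPM in A549 and 178 and 177 CPM in B2B (-1.14 ± 0.12), close to its untreated difference of -0.99 ± 0.12. JUND was lower under the drug, at 94.1 and 81.5 CPM in A549 and 136 and 147 CPM in B2B (-0.69 ± 0.12), and higher untreated, at 154 and 141 CPM in untreated A549 and 89.1 and 107 CPM in untreated B2B (0.59 ± 0.12). The 2 A549 libraries did not agree on FOSL1, at 67.1 and 29.8 CPM in A549 and 58.8 and 67.8 CPM in B2B (-0.39 ± 0.25), and its direction rested on them: it was called at -1.09 without the first of them and was 0.10, not called, without the second. FOSL2 had 157 and 133 CPM in A549 and 154 and 154 CPM in B2B.

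Among 23 other bZIP factors 8 were higher and 7 lower, 34.8% and 30.4%, close to the 29.9% and 26.6% of all genes. CEBPA, of differentiated epithelium and liver, had 13.6 and 14.5 CPM in A549 and 0.781 and 0.338 CPM in B2B, and ATF3, a stress-induced partner of JUN, had 42.5 and 31.6 CPM in A549 and 9.21 and 8.90 CPM in B2B. MAFF was lower at 6.70 and 4.81 CPM in A549 and 25.6 and 24.4 CPM in B2B, while NFE2 was at or under 1.11 CPM in every SR11302 library and lost its call in 3 alternatives. Of 22 AP-1 responsive genes 11 were higher and 5 lower, beside 29.9% and 26.6% of all genes, and 14 stood. AREG, a ligand of EGFR, had 33.4 and 24.9 CPM in A549 and 1.52 and 1.35 CPM in B2B, against 123 and 109.6 CPM in untreated A549, and its line difference changed by -1.42 (adjusted p = 0.00452). CXCL8, the neutrophil chemokine, had 5.00 and 14.9 CPM in A549 and 1.07 and 0.394 CPM in B2B. HBEGF, another EGFR ligand, and SPHK1, a kinase of sphingosine, were lower, at 6.31 and 4.31 CPM of HBEGF and 5.20 and 4.602 CPM of SPHK1 in A549, against 93.9 and 93.9 CPM of HBEGF and 35.8 and 39.9 CPM of SPHK1 in B2B. EGR1, an immediate early factor picked after its values were seen because its difference turned round, had 71.8 and 103 CPM in A549 and 296 and 274 CPM in B2B with the drug (-1.70 ± 0.17), against 516 and 479 CPM in untreated A549 and 263 and 262 CPM in untreated B2B (0.93 ± 0.16).

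The AP-1 site TGACTCA, searched on both strands in the same 250 bases, lay in 3 of the 15 promoters found for the AP-1 responsive list, 20% of them, beside 4.16% of all promoters. It lay in 2 of the 24 promoters of NRF2 targets and in none of the 9 of the oncogenes. The stretches are shown for CXCL8, PLAUR and IL11, with the site in capitals:
CXCL8, chr4:73740407-73740463, plus strand: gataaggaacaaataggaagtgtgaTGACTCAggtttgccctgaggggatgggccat
PLAUR, chr19:43670324-43670380, minus strand: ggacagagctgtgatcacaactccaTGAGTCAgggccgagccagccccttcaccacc
IL11, chr19:55370528-55370584, minus strand: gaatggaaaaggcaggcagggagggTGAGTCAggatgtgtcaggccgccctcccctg
These 3 genes did not share a direction. CXCL8 was higher (3.68 ± 0.49), PLAUR, the urokinase receptor, was higher at 30.2 and 24.4 CPM in A549 and 16.9 and 19.4 CPM in B2B (0.59 ± 0.15), and the cytokine IL11 was lower at 15.6 and 16.6 CPM in A549 and 34.2 and 27.5 CPM in B2B (-0.94 ± 0.19).

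**Figure D4:**
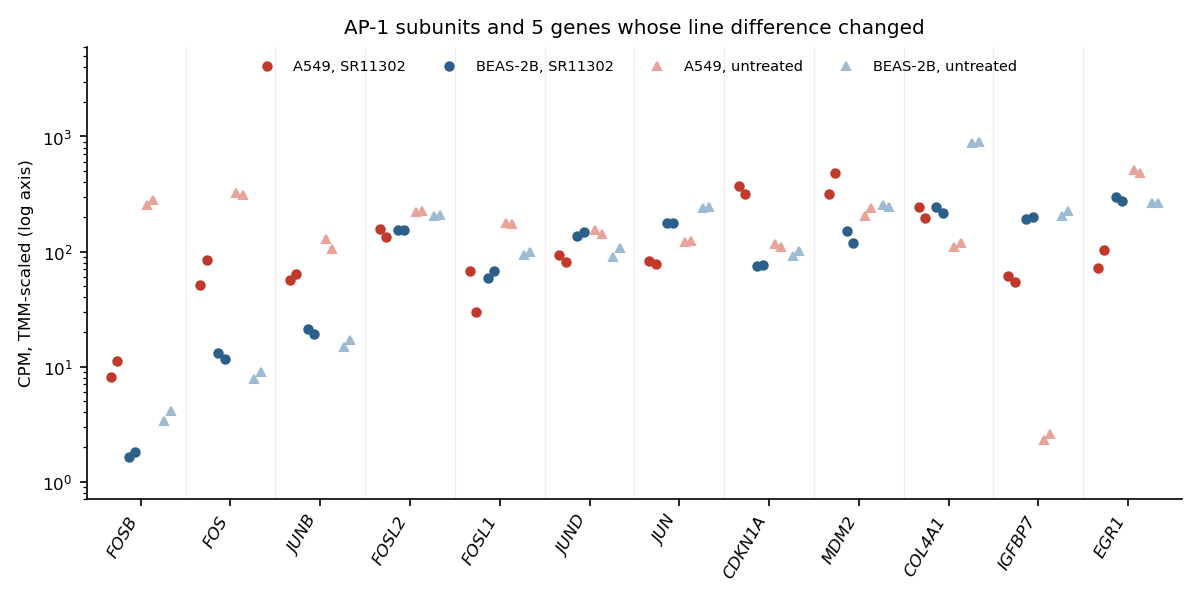
CPM of the 7 AP-1 subunits and 5 further genes in each of 8 libraries on a log axis, red circles for SR11302 A549, blue circles for SR11302 BEAS-2B and pale triangles for the untreated libraries. FOSB, FOS and JUNB lie higher in A549 in both conditions but closer together with the drug, COL4A1 overlaps between the lines only with the drug, and EGR1 changes order.

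Of the 13 oncogenes that the study names, 7 were higher, 1 lower and 5 not called, beside 29.9% higher and 26.6% lower of all genes. Of the 13, 5 stood from the untreated comparison, beside 7069 of the 16373 genes tested. CCND1, the G1 cyclin D1, had 699.6 and 717 CPM in A549 and 71.4 and 62.2 CPM in B2B (3.41 ± 0.12), and the tyrosine kinase SRC had 393 and 344 CPM in A549 and 72.2 and 75.6 CPM in B2B (2.32 ± 0.12), a difference that changed by -0.86 from the untreated one (adjusted p = 0.00215). CCNE1, cyclin E1, had 39.6 and 34.4 CPM in A549 and 7.44 and 7.04 CPM in B2B, and the receptors EGFR and FGFR1 had 293 and 287 CPM of EGFR and 592 and 423 CPM of FGFR1 in A549, against 165 and 152 CPM of EGFR and 124 and 132 CPM of FGFR1 in B2B. PAX7, a factor of muscle precursors, had 10.1 and 12.9 CPM in A549 and no count in B2B, at least 162-fold higher. HSP90AB1, a chaperone, was higher by 0.55 ± 0.12, close to the fold minimum, and its call was lost without the first A549 SR11302 library (0.37) and when libraries were scaled by size alone (0.46). KLF6 was the lower member, at 73.2 and 76.8 CPM in A549 and 170.3 and 157 CPM in B2B (-1.13 ± 0.12). POU5F1, MSH6, GOLGA5, GMPS and SDHAF2 were not called, at 0.59, 0.44, 0.35, 0.24 and -0.08 on the log2 scale. The study names these oncogenes in its account of the same lines, so their count is no independent support for a direction.

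The p53 targets were mostly higher, and in most the line difference was more positive with the drug. The study describes B2B as SV40-immortalized, and the part of this in the values of the p53 targets was not tested. Of 27 tested 23 were higher, 1 lower and 3 not called, against 14 higher and 7 lower untreated, the median was 1.57 against 0.57, and the change passed the test as positive in 19 and as negative in none, beside 8.34% and 7.41% of all genes. GDF15, a secreted stress factor, had 153 and 136 CPM in A549 and 2.47 and 2.31 CPM in B2B (5.91 ± 0.16). TP53I3 had 142.8 and 139 CPM in A549 and 12.9 and 17.1 CPM in B2B, and SPATA18, which clears damaged mitochondria, had 16.8 and 25.2 CPM in A549 and 1.69 and 2.25 CPM in B2B. The death receptor FAS had 27.0 and 36.8 CPM in A549 and 4.605 and 4.68 CPM in B2B, and BBC3 (PUMA), which promotes apoptosis, had 15.9 and 13.1 CPM in A549 and 2.10 and 2.48 CPM in B2B. CDKN1A, the p21 cell-cycle inhibitor, and MDM2, the ligase that degrades p53, both picked after their values were seen, were called only with the drug. CDKN1A had 369.7 and 319 CPM in A549 and 75.4 and 76.6 CPM in B2B (2.18 ± 0.11), against 117 and 109.6 CPM in untreated A549 and 90.8 and 101.4 CPM in untreated B2B (difference 1.94 ± 0.15, adjusted p = 2.83e-06). MDM2 had 319 and 479 CPM in A549 and 150.1 and 118 CPM in B2B, and 204 and 239 CPM in untreated A549 and 255 and 243 CPM in untreated B2B (difference 1.74 ± 0.23).

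Replication and mitosis genes were mostly lower or not called. Of 43 DNA replication genes 24 were lower and 1 higher under SR11302, beside 26.6% and 29.9% of all genes, against 7 lower and 7 higher untreated, with medians of -0.58 and -0.01. The change passed the test as negative in 21 and as positive in none, beside 7.41% and 8.34% of all genes. MCM2, of the replicative helicase, had 123 and 91.8 CPM in A549 and 289 and 329.8 CPM in B2B (-1.53 ± 0.13), against -0.49 ± 0.13 untreated. UHRF1, which helps to maintain DNA methylation, the checkpoint adaptor CLSPN, the histone chaperone subunit CHAF1A and thymidine kinase TK1 had log2 fold changes of -1.64, -1.55, -1.50 and -1.44. Of 40 mitotic genes 32 were lower and none higher, against 13 and none untreated, with medians of -0.84 and -0.29, and 12 changes were negative and none positive, read against the same shares of all genes. NDC80, of the kinetochore, had 21.5 and 21.8 CPM in A549 and 135 and 129 CPM in B2B (-2.61 ± 0.13), and the spindle kinesin KIF20A had 111 and 74.3 CPM in A549 and 429 and 436 CPM in B2B. SPC24, KIF2C and UBE2C, of the kinetochore, of microtubule turnover and of cyclin destruction, had log2 fold changes of -1.78, -1.48 and -1.41. These sizes are small beside the identity genes: with a fold minimum of 1 on the log2 scale 11 replication and 16 mitotic genes were called lower. Of 21 G1 cyclins, their kinases and inhibitors, 6 were higher and 12 lower, with CDKN2C, the inhibitor p18, at 25.7 and 24.9 CPM in A549 and 141 and 142.5 CPM in B2B.

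**Figure D5:**
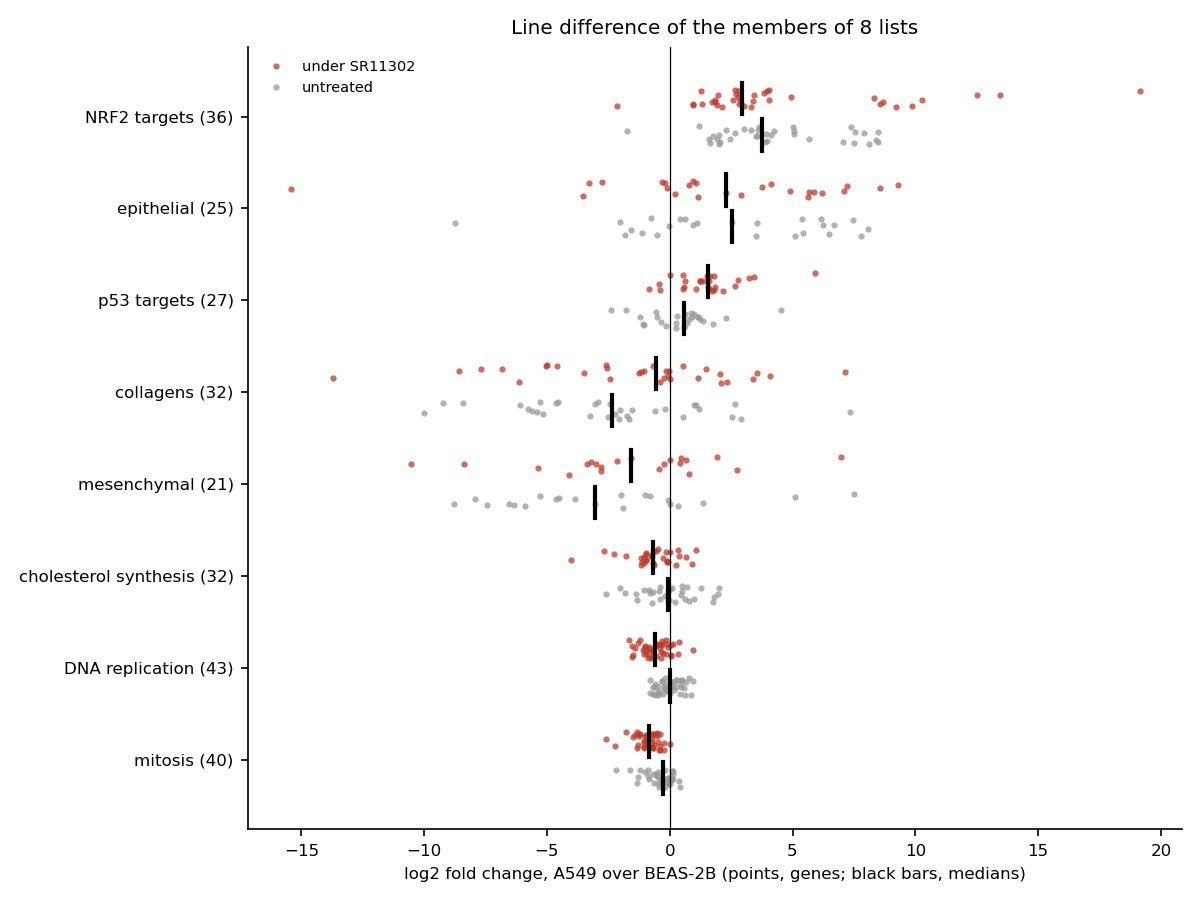
Log2 fold change of A549 over BEAS-2B for the members of 8 lists, red for SR11302 and grey for untreated, with black bars at the medians and the number tested in brackets; genes absent from a line are drawn at their fitted value. The p53 targets sit farther to the right with the drug (median 1.57 against 0.57), replication and mitotic genes farther to the left (-0.58 against -0.01, and -0.84 against -0.29), and collagens nearer to 0 (-0.55 against -2.34).

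Growth factor receptors and their ligands were called in both directions. Of 35 receptors 16 were higher and 12 lower, and of 33 ligands 18 were higher and 11 lower. The shares over all genes were 29.9% higher and 26.6% lower. The BMP receptor BMPR1B had 34.8 and 46.3 CPM in A549 and 0.946 and 1.07 CPM in B2B. The stem cell factor receptor KIT had 0.291 and 0.209 CPM in A549 and 14.7 and 13.1 CPM in B2B, the WNT receptor ROR2 had 1.41 and 1.13 CPM in A549 and 25.9 and 27.0 CPM in B2B and KDR, a VEGF receptor, had no count in A549 and 1.27 and 0.676 CPM in B2B. Among ligands, BMP7 had 5.97 and 5.82 CPM in A549 and no count in B2B, and PDGFD had 40.9 and 60.5 CPM in A549 and 0.863 and 0.169 CPM in B2B. GREM1, a BMP antagonist, had 1.65 and 2.09 CPM in A549 and 169 and 136 CPM in B2B and FGF1 had 0.388 and 0.209 CPM in A549 and 11.1 and 8.85 CPM in B2B. All 7 IGF binding proteins, which hold insulin-like growth factors outside the cell, were tested. IGFBP1, IGFBP2 and IGFBP4 were higher, with 8.11 and 13.6 CPM of IGFBP1 in A549 and no count in B2B, 70.2 and 57.9 CPM of IGFBP2 against 12.2 and 14.7 CPM, and 1374 and 1157 CPM of IGFBP4 against 241 and 259.8 CPM. IGFBP3, IGFBP5 and IGFBP7 were lower (-1.02, -6.97 and -1.76), and IGFBP6 was not called at 27.1 and 31.4 CPM in A549 and 27.4 and 30.3 CPM in B2B. IGFBP7 had the largest called change of line difference of the 7. It had 61.2 and 54.6 CPM in A549 with the drug and 2.28 and 2.602 CPM without, while B2B had 191 and 199.9 CPM with and 203 and 225 CPM without (difference 4.69 ± 0.18, adjusted p = 7.54e-09).

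Antigen presentation genes were lower or not called. Of 17 MHC class I genes 13 were lower and none higher, with a median of -0.94, and 10 stood. HLA-B had 40.9 and 36.8 CPM in A549 and 659.8 and 738 CPM in B2B. HLA-C had 55.6 and 49.8 CPM in A549 and 612 and 686 CPM in B2B. These genes share much sequence, and their counts are uncertain. NLRC5, the activator of class I genes, had 4.71 and 4.31 CPM in A549 and 37.6 and 41.2 CPM in B2B, and ERAP2, which trims peptides, had 5.34 and 8.12 CPM in A549 and 81.0 and 69.7 CPM in B2B. Of 31 interferon-stimulated genes 6 were higher and 12 lower, beside 29.9% and 26.6% of all genes. OAS1, a sensor of viral RNA, had 62.2 and 49.3 CPM in A549 and 0.534 and 0.507 CPM in B2B. The antiviral genes MX1 and BST2 were lower, at 0.437 and 0.879 CPM of MX1 and 0.243 and 0.167 CPM of BST2 in A549, against 5.76 and 8.85 CPM of MX1 and 6.70 and 9.07 CPM of BST2 in B2B. RSAD2 and XAF1 were called on few reads, RSAD2 at 0.534 and 0.502 CPM in A549 with no count in B2B and XAF1 at 0 and 0.0418 CPM in A549 and 1.44 and 0.958 CPM in B2B.

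Inflammatory genes were mostly higher: of 27 NF-kB, chemokine and cytokine genes 20 were higher and 2 lower, with a median of 1.64, and 18 stood. CXCL5, a neutrophil chemokine, had 23.1 and 42.2 CPM in A549 and 0.247 and 0.0563 CPM in B2B. PTGS2, which makes prostaglandins, had 17.9 and 48.8 CPM in A549 and 0.493 and 0.282 CPM in B2B, and the complement component C3 had 111 and 135 CPM in A549 and 3.29 and 1.97 CPM in B2B. CCL20 had 2.38 and 2.43 CPM in A549 and no count in B2B, and BIRC3, an inhibitor of cell death, had 35.2 and 41.0 CPM in A549 and 1.69 and 1.80 CPM in B2B. The 2 lower members, named after their values were seen, were IL6 at 0.534 and 1.05 CPM in A549 and 3.08 and 4.56 CPM in B2B and ICAM1 at 1.36 and 0.669 CPM in A549 and 18.3 and 22.0 CPM in B2B. Of 20 YAP targets 14 were lower and 4 higher, with a median of -0.94. CYR61, a matricellular target, had 224 and 151 CPM in A549 and 1464 and 1417 CPM in B2B. Tissue factor F3 had 2.14 and 2.59 CPM in A549 and 199.7 and 174 CPM in B2B, and the receptor AXL had 363 and 289.6 CPM in A549 and 1464 and 1399 CPM in B2B. ANKRD1 and FOXF2 ran the other way, at 91.2 and 78.5 CPM of ANKRD1 and 16.6 and 13.6 CPM of FOXF2 in A549, against 7.85 and 7.77 CPM of ANKRD1 and 0 and 0.0563 CPM of FOXF2 in B2B.

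Sterol, stress and energy genes were called in both directions. Of 32 cholesterol and fatty acid synthesis genes 19 were lower and 3 higher, against 10 lower and 9 higher untreated, with medians of -0.68 and -0.05, beside 26.6% lower and 29.9% higher of all genes under the drug. The change was negative in 14 and positive in none, beside 7.41% and 8.34% of all genes. ACAT2, LSS and MSMO1, of sterol synthesis, had log2 fold changes of -2.27, -1.77 and -1.19. Of 23 integrated stress response genes 15 were higher and 3 lower, against 11 and 5 untreated. NUPR1 had 25.7 and 27.4 CPM in A549 and 1.23 and 1.80 CPM in B2B, and DDIT4, an inhibitor of mTOR, had 202 and 237 CPM in A549 and 20.4 and 18.8 CPM in B2B. The cystine importer SLC7A11 had 456 and 835 CPM in A549 and 105 and 78.7 CPM in B2B. ASNS, asparagine synthetase, had 109 and 116 CPM in A549 and 19.1 and 18.1 CPM in B2B, although all of its sequence is shared with another annotated gene and its counts are uncertain. STC2, a secreted glycoprotein, was lower at 34.6 and 46.7 CPM in A549 and 260.1 and 244 CPM in B2B. Of 28 hypoxia targets and glycolytic enzymes 15 were higher and 5 lower. The carbonic anhydrase CA12 had 516 and 579 CPM in A549 and 0.740 and 1.24 CPM in B2B, and the oxygen sensor EGLN3 had 27.5 and 30.6 CPM in A549 and 0.617 and 0.507 CPM in B2B. NDRG1 had 187 and 144 CPM in A549 and 11.2 and 13.4 CPM in B2B, the glucose transporter SLC2A3 had 155 and 137 CPM in A549 and 18.8 and 14.4 CPM in B2B, and hexokinase HK2 was lower at 7.33 and 5.52 CPM in A549 and 42.3 and 36.8 CPM in B2B. Of 34 oxidative phosphorylation subunits 13 were higher and 3 lower with no called change in either direction. The widest were UQCRFS1 of complex III at 182 and 137 CPM in A549 and 43.2 and 46.7 CPM in B2B and COX5A of complex IV at 189.9 and 122 CPM in A549 and 63.9 and 71.7 CPM in B2B, and SDHA of complex II was lower at 138 and 113 CPM in A549 and 278 and 285 CPM in B2B.

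Because SR11302 is a retinoid, retinoid genes were counted as a list: of 27 tested 16 were higher and 6 lower, with medians of 1.27 under the drug and 2.65 untreated, and 20 stood. RARB, itself induced by retinoic acid and chosen after its values were seen, had 38.7 and 50.8 CPM in A549 and 4.605 and 3.15 CPM in B2B. These are levels with the drug and do not show whether RARB responded to it. DHRS9, which handles retinol, had 1.85 and 2.18 CPM in A549 and no count in B2B. ALDH1A2, which makes retinoic acid in the embryo, had no count in A549 and 0.822 and 0.563 CPM in B2B. Of 12 S100 calcium-binding proteins 7 were higher and 3 lower. S100P had 2.48 and 4.02 CPM in A549 and 0 and 0.0563 CPM in B2B. S100A3 had 13.8 and 10.8 CPM in A549 and 1.36 and 1.41 CPM in B2B and S100A2 was lower at 2.09 and 1.72 CPM in A549 and 6.00 and 6.14 CPM in B2B. Of the markers of other cell types that passed the filter, CHGA of neuroendocrine cells and FOXJ1 of ciliated cells were higher, at 2.04 and 1.42 CPM of CHGA and 0.825 and 0.753 CPM of FOXJ1 in A549, against 0 and 0.0563 CPM of CHGA and 0.0822 and 0 CPM of FOXJ1 in B2B, and VWF of endothelium was lower at 0.0486 and 0.0418 CPM in A549 and 2.22 and 1.80 CPM in B2B.

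The genes whose line difference changed most with the drug, among those at 10 CPM or more in a group, fell into 2 kinds. For RGS4, a brake on G protein signals, and TLR4, the receptor of bacterial lipopolysaccharide, both lines were measured above the floor under SR11302. TLR4 had 1.85 and 5.61 CPM in A549 and 15.7 and 12.1 CPM in B2B with the drug, against 0 and 0.0531 CPM in untreated A549 and 23.7 and 21.7 CPM in untreated B2B, so it was absent or nearly so in untreated A549 (difference 7.52 ± 0.93, adjusted p = 1.22e-04). RGS4 had 0.146 and 0.335 CPM in A549 and 7.81 and 6.76 CPM in B2B, against no count in untreated A549 and 48.9 and 46.5 CPM in untreated B2B. DMKN, dermokine, had 10.6 and 10.2 CPM in A549 and 5.96 and 7.44 CPM in B2B with the drug and 22.8 and 21.7 CPM in untreated A549 and 0.718 and 0.896 CPM in untreated B2B. NPY1R, a neuropeptide Y receptor, had 2.09 and 5.86 CPM in A549 and 0.699 and 0.338 CPM in B2B with the drug. It had 10.4 and 10.1 CPM in untreated A549 and was nearly absent from untreated B2B, at 0.0479 and 0.0814 CPM. RPS28, a ribosomal protein gene with many copies, had 1.55 and 0.962 CPM in A549 and 20.6 and 27.7 CPM in B2B, against 184 and 140.5 CPM in untreated A549 and 154 and 179 CPM in untreated B2B, and its counting may depend on how reads of copies were handled. For AKR1B10, CPLX2, ALDH1A1, RSPO3, CDKN2A and STAP2, the line that lacks the gene had at most 2 counts with the drug and a trace in an untreated library. AKR1B10 had 0.192 and 30.4 CPM in untreated B2B, so such changes are computed from the traces described above. STAP2, an adaptor protein, had no count in A549 and 9.66 and 13.2 CPM in B2B.

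Few differences turned round. Of the genes called in both conditions 107 were called in opposite directions. The 6 that turned round most, ranked by the smaller of their 2 differences, were at or under 5.10 CPM in every library of both conditions. TNFSF15, a cytokine of the TNF family, had 1.31 and 5.10 CPM in A549 and 0.411 and 0.282 CPM in B2B with the drug, against 0.500 and 0.478 CPM in untreated A549 and 1.92 and 1.63 CPM in untreated B2B. ZNF542P and ZNF582, of the zinc finger clusters of chromosome 19, were higher with the drug at 0.971 and 1.26 CPM of ZNF542P and 0.631 and 0.837 CPM of ZNF582 in A549, against 0.0822 and 0.0563 CPM of ZNF542P and 0.164 and 0.113 CPM of ZNF582 in B2B. SHISA3, GABRA2 and CHRM3 were lower with the drug, all at or under 0.676 CPM in every SR11302 library. Among more abundant genes, chosen after their values were seen, the receptor ERBB3 had 25.5 and 26.7 CPM in A549 and 45.5 and 47.2 CPM in B2B with the drug (-0.83 ± 0.11), against 33.2 and 32.0 CPM in untreated A549 and 12.7 and 13.9 CPM in untreated B2B (1.29 ± 0.12).

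By chromosome, 22 autosomes were compared. The share of genes higher in A549 was greatest on chromosome 2, where 464 of 1032 were higher (45.0%) and 165 lower (15.99%) with a median of 0.45, and the share lower was greatest on chromosome 9, where 286 of 640 were lower (44.7%) and 120 higher (18.8%) with a median of -0.42. The untreated medians were 0.44 and -0.20.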

How the data were processed

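Gene-level read counts were analysed as deposited. According to the methods of the study and the submitters' processing notes, the authors prepared libraries with the KAPA mRNA HyperPrep kit from TRIzol extracts treated with DNase, aligned reads to hg38 with STAR 2.7.10a and counted them with HTSeq 1.99.2, 1 column of raw counts per library. For the annotation version, strand setting and read length, the value was not given in the sources used here. Of 26485 symbols, 24531 matched GENCODE v44, which gave coordinates. Reads that fell in no gene, 16.7% and 20.1% in A549 and 14.6% and 14.7% in B2B with SR11302, stayed out of library sizes. In the untreated libraries this share was higher, at 23.8% and 25.9% in A549 and 25.8% and 24.1% in B2B. The part of this library difference in the changes with the drug was not tested.

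Counts of 12 libraries in 6 groups were fitted together with edgeR 4.0.16 in R 4.3.3 (filterByExpr, TMM, quasi-likelihood F test, 6 residual degrees of freedom), with Benjamini-Hochberg adjustment over 16373 genes. The change of a line difference was tested as A549 minus B2B under SR11302 minus the same untreated. DESeq2 1.42.0 and the other alternatives are given in the closing section. On simulated counts for 16075 genes of the SR11302 comparison, with 200 genes changed, the test recovered 85% of changes of 1 and 97% of changes of 2 on the log2 scale, with 14 false calls. Changes were set only in genes above 1 CPM, so the recovery does not cover genes of fewer reads. All other genes were set equal between the lines, whereas 56.5% were called in the data. Intervals of ratios are 95% exact ones and, like the floor of 3 counts, cover counting error only.

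Named genes were the AP-1 subunits and the oncogenes of the study, the 12 largest rises and falls among genes averaging 10 CPM or more in the higher line, up to 5 called members of each list by size of change, every member of lists of 12 or fewer genes, the 6 largest called changes of the line difference in each direction and the 6 clearest reversals. Genes at sex-specific loci and unnamed loci were left out, and some genes that the rule selects are not reported here. Any other gene named was chosen after its values were seen. The members and lists were chosen with earlier results of these data known.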

Additional observations from a re-analysis of the deposited data

Results flagged for a closer look

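The line difference under SR11302 differed from the untreated one, by the test of the difference itself in edgeR, in 2579 genes. Among the genes named here it was more positive with the drug in AKR1B10 (10.64 ± 3.09 on the log2 scale), CPLX2 (9.67 ± 2.95), ALDH1A1 (9.20 ± 1.92), RGS4 (7.997 on that scale), TLR4 (7.52 ± 0.93), RSPO3 (7.25 ± 2.21), ZNF542P (7.12 ± 0.89), ZNF582 (5.95) and TNFSF15 (5.02 ± 0.84). It was more negative in GABRA2 (-8.28 ± 1.54), SHISA3 (-6.89 ± 1.34), CDKN2A (-6.36 ± 1.87), STAP2 (-5.18 ± 1.54), CHRM3 (-4.61 ± 1.01), NPY1R (-4.27 ± 1.02), RPS28 (-4.23 ± 0.33) and DMKN (-4.12 ± 0.28). Of the AP-1 subunits it was more negative in FOSB (-3.66 ± 0.28), FOS (-2.80 ± 0.31), JUNB (-1.32 ± 0.21), JUND (-1.28 ± 0.17) and FOSL1 (-1.26 ± 0.35). The A549 SR11302 libraries did not agree on FOSL1. Its line difference under SR11302 was -1.09 without the first of them and 0.10 without the second.

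The fitted sizes for AKR1B10, CPLX2, RSPO3, RGS4, CDKN2A and STAP2 involve a group without counts and depend on the prior count, so they are no bound. The sizes for TLR4, NPY1R and ALDH1A1 each rest on a group nearly without counts. That group was untreated A549 for TLR4, untreated B2B for NPY1R and SR11302 B2B for ALDH1A1. The part of the foreign transcripts in the second untreated library of each line was not tested gene by gene, and without both of those libraries the value of RSPO3 was -0.23. GC content moved with the change across genes whose sequence is at least 95% unique, with a Spearman rho of -0.27 over 13271 genes, against -0.03 for the line difference under SR11302 itself. The part of GC content in the change was not tested.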

How the results depend on the processing

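Counts of called line differences were stable to the choice of test: DESeq2 called 8892 genes under SR11302 and 2704 changes, with 6821 differences called in both conditions. With a fold minimum of 1 on the log2 scale, 5906 genes were called under SR11302 (2533 lower), 2758 were lower untreated, 1422 line differences changed (884 positive, 538 negative) and 4547 stood. In a fit of only the 8 SR11302 and untreated libraries, 732 changes were negative. When each condition was fitted on only its own 4 libraries, 8595 genes were called under SR11302 and 6591 differences stood. Leaving out 1 library at a time gave 1375 to 4768 changes, 744 to 2432 of them positive and 587 to 2336 negative, against 8909 to 9419 genes called under SR11302 and 6632 to 7253 standing. Without the second untreated library of both lines, chosen after seeing the data, there were 1295 changes (747 positive, 548 negative). RSPO3 reversed, its change being -0.18 without the second untreated B2B library and -0.23 without the second untreated library of both lines, and between -0.18 and 8.14 when 1 library was left out. The causes were not tested.

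The deviations of same-numbered libraries had correlations of -0.256 to 0.24 over 15 pairs of groups, -0.256 between the lines with SR11302 and -0.064 untreated. Only the pair of SR11302 A549 and untreated A549, at 0.24, was over 0.1, and the labels tie no number to a shared batch, so the numbers were not taken to pair the libraries. With the number as a replicate block 9176 genes were called under SR11302, 9246 untreated, 2249 changes were called and 7027 differences stood. Scaling by library size alone moved the median of all genes by -0.08 under SR11302 and put 48.6% of the calls on the higher side, against 52.9%. Of the named genes' values under SR11302, 2160 kept their side of the threshold without a called value changing sign, 31 lost the call and 4 gained it. Of the 2160, 8 values of 5 uncalled genes (FOSL1, FOSL2, IGFBP6, KLHL9 and SDHAF2) changed sign. Of their changes with the drug, 322 kept both, 49 lost the call and 2 reversed. With 2 libraries per group, small differences and genes of few reads are the limit.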

Other observations

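Zinc finger genes of chromosome 19, a grouping chosen after the values were seen, were more often lower than higher in A549. Of 229 tested, 118 were lower and 43 higher with SR11302, against 157 lower and 23 higher untreated, and 128 differences stood. Over all genes 26.6% were lower and 29.9% higher with SR11302. In the first 30 Mb of the chromosome 58 of 69 were lower and 2 higher, with a median log2 fold change of -2.73 with the drug and -4.82 untreated. In the rest 60 of 160 were lower and 41 higher, with medians of -0.07 and -0.95. The change of the line difference was called as positive in 85 of the 229 and as negative in 4, beside 8.34% and 7.41% of all genes. Of the positive changes, 15 lay in the first 30 Mb and 70 in the rest. These genes share much sequence, and no explanation was tested.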
